A study of Homo sapiens with 4 samples.

Results

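The forkhead box genes encode transcription factors that share a winged-helix DNA-binding domain and are grouped by a letter into subfamilies. Many of them direct the formation of organs in the embryo, and in the adult they keep cell identity (FOXA), answer insulin and stress signals (FOXO) or drive mitosis (FOXM1). Many forkhead genes are short and lie in dense stretches of CpG sites, the cytosine-guanine pairs at which human DNA is methylated, and methylation around a transcription start site (TSS) commonly accompanies silencing of a gene. The forkhead genes FOXC2, FOXQ1 and FOXF2 are also known from work on epithelial-mesenchymal transition, the change of cell state that the SKOV3 clones studied here represent in reverse.

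The set held 40 forkhead genes of 20163 protein-coding genes. Its members were taken from a list of symbols and are not all forkhead genes of the genome. The GENCODE span of each on GRCh37 (hg19), extended by 5 kb on each side, was searched for differentially methylated regions (DMRs). A DMR is 1 listed tile of 1000 bp. In all, 160 of 72455 distinct DMRs lay at a forkhead gene, and 37 of the 40 genes had at least 1. The same share of all protein-coding genes over any comparison was not computed, but in a single comparison it reached 60.3%. No DMR was listed at FOXI1, FOXM1 or FOXN2, where the assay was predicted to reach 2, 11 and 4 tiles.

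DNA methylation had been measured by reduced representation bisulfite sequencing (RRBS) in 4 libraries of SKOV3, an established ovarian cancer cell line with mesenchymal features. The mesenchymal (M) clones were shC-S, which carries a control shRNA, and LY75-R-S (labelled Ly75-OV-S), made from the knockdown cells with a LY75 cDNA that resists the shRNA. The epithelial (E) clones were sh-LY75-S, with LY75 suppressed by shRNA, and LY75-KO-S, with LY75 inactivated by CRISPR. All share the SKOV3 background, each is 1 clone with 1 library, and LY75-R-S descends from sh-LY75-S cells, so that the LY75 state and the history of a clone cannot be told apart.

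The deposited tables compare shC-S with sh-LY75-S (the knockdown comparison), LY75-R-S with LY75-KO-S (the knockout comparison), and both M with both E clones (the mix). The single comparisons share no library, while the mix reuses all 4 and is set beside them only as values. Each DMR has a difference in percent methylation (25 points or more, q-value under 0.01), and a positive difference was read as hypermethylated in SKOV3-E cells. Read numbers and methylation per library are not part of the tables, so the depth behind each value and the replicate error are unknown. The q-values compare libraries, not conditions. A region that is not listed may have been unchanged or not covered. A difference under 100 points can come from part of the cells or part of the alleles, which cannot be told apart. The sign in the knockout comparison was settled only through the mix, and a mix grouped otherwise would reverse it.

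Sequences are shown for 6 forkhead genes on which the comparisons turn, as examples of predicted fragments in listed tiles. A difference is given for a whole tile, so which CpGs of a fragment it rests on is not known. RRBS cuts DNA with MspI at CCGG and sequences the ends of short fragments. For each gene, 1 predicted fragment free of exons is given from the plus strand of GRCh37, 5′ to 3′, from the CGG left by the first cut to the CCG of the next, with every CpG in capitals. The fragments lie at chr6:1388134-1388245 upstream of FOXF2, chr6:1608647-1608806 upstream of FOXC1, chr1:63792642-63792710 downstream of FOXD3, chr14:38053503-38053636 downstream of FOXA1, chr12:109729486-109729591 in an intron of FOXN4, and chr3:71001716-71001879 downstream of FOXP1.
FOXF2: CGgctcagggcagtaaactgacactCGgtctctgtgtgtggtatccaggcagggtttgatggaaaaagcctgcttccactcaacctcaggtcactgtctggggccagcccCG
FOXC1: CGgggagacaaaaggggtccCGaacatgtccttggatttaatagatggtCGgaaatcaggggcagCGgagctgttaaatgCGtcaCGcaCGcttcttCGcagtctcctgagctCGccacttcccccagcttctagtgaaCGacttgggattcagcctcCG
FOXD3: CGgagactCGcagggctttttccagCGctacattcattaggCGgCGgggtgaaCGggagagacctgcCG
FOXA1: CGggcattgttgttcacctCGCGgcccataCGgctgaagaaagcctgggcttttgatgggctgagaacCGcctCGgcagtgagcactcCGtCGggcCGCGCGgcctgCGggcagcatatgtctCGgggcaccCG
FOXN4: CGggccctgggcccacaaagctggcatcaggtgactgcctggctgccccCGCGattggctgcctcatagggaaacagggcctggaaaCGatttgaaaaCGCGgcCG
FOXP1: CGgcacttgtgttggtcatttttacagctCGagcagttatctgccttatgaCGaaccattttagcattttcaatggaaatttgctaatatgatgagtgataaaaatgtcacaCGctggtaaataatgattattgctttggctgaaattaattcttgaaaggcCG
The fragments ranged from 3 CpGs in 112 bp at FOXF2 to 14 CpGs in 134 bp at FOXA1. The whole tile held 25 CpGs at FOXF2, 55 at FOXC1, 39 at FOXD3, 68 at FOXA1, 43 at FOXN4 and 15 at FOXP1. By this prediction, a listed difference rests on a few readable CpGs at FOXP1 (3 within reach of reads of 50 bp) and FOXF2 (5), and on many at FOXA1 (44).

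In the knockdown comparison, a larger share of forkhead genes than of all genes was listed, and a smaller share of their DMRs than of all DMRs was hypermethylated in SKOV3-E cells. A DMR was listed at 32 of 40 members (80.0%), where it was 60.3% of all protein-coding genes. Among the 24 members of 10 kb or less the number was 21 (87.5%), beside 48.4% of genes that short. A DMR within 2 kb of a TSS was listed at 23 of 40 members, beside 30.1% of all genes. Of the 131 member DMRs, 52 were hypermethylated in SKOV3-E cells (39.7%, 95% Wilson interval 31.7 to 48.3%), while 64.7% of all DMRs of this comparison were. At the spans of all protein-coding genes with the same 5 kb, 61.9% of DMRs were hypermethylated. Without the 5 kb on each side, 43 of 87 member DMRs were hypermethylated (49.4%, 39.2 to 59.7%). The share over all protein-coding genes without the 5 kb was not computed. By gene, 10 members had only hypomethylated DMRs, 8 only hypermethylated ones and 14 both. The intervals describe counting error only, and adjacent tiles of a gene may change together. The median absolute difference was 53.4 points at members and 50.0 points over all DMRs.

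Among the classes of tile compared, the gap to all DMRs was widest in CpG-rich tiles. Of the 48 member DMRs with 50 or more CpGs, 11 were hypermethylated (22.9%, 13.3 to 36.5%), beside 58.2% of all DMRs that dense. Of the 83 with fewer CpGs, 41 were (49.4%, 38.9 to 59.9%), beside 65.4%. Within 2 kb of a TSS, 15 of 50 member DMRs were hypermethylated (30.0%), beside 55.6%, and with 50 or more CpGs as well it was 9 of 33 (27.3%), beside 54.9%. At members of 10 kb or less the count was 22 of 71 (31.0%), beside 54.7%, and at longer members 30 of 60 (50.0%), beside 62.2%. Tiles of 50 or more CpGs made up 36.6% of the member DMRs and 10.1% of all DMRs. They also made up 21.4% of the member tiles that predicted MspI fragments of 40 to 220 bp can reach, and 7.87% of all reachable tiles.

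**Figure D1:**
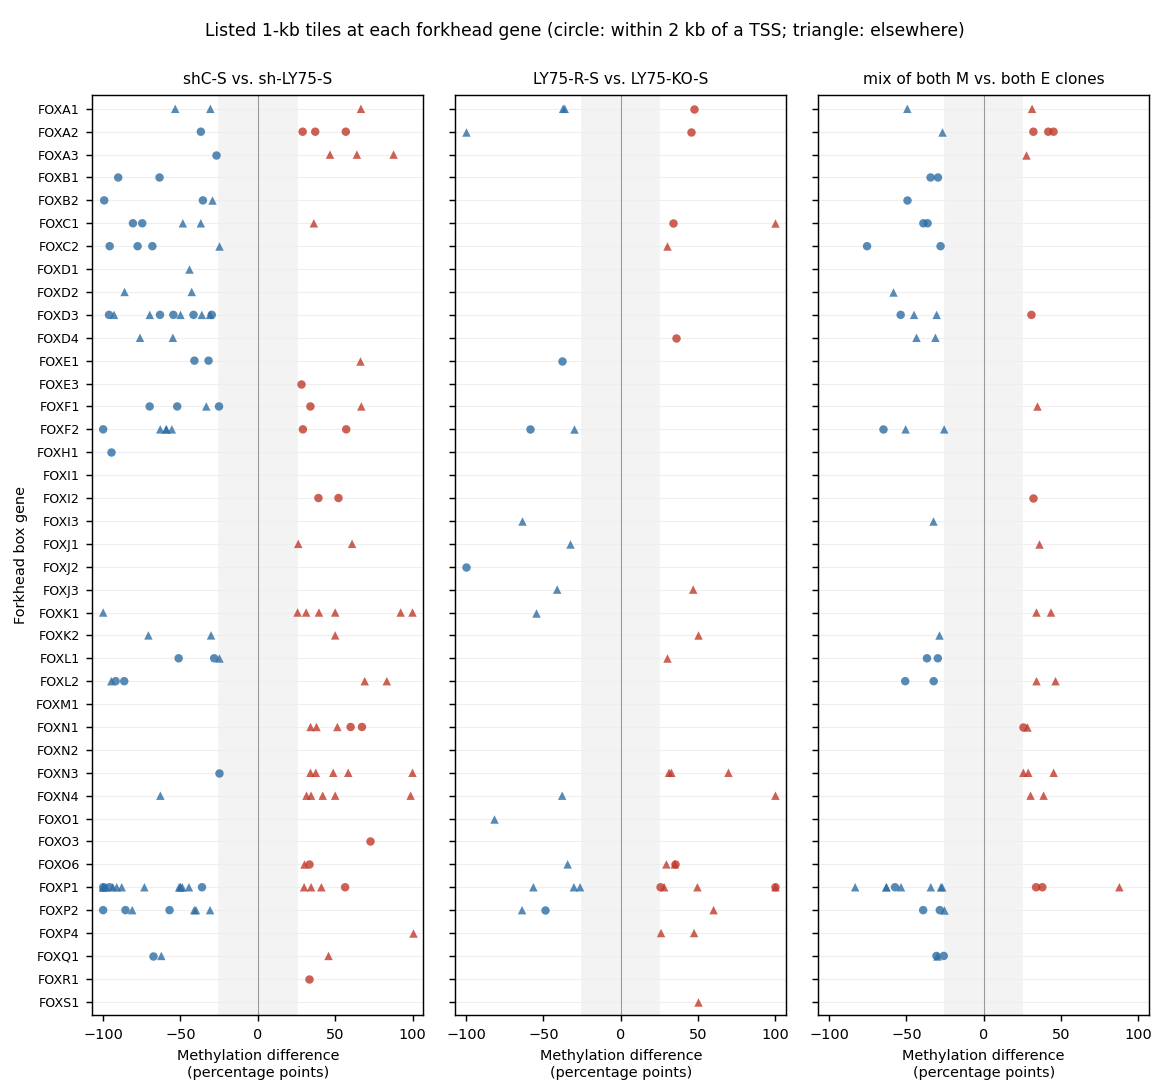
Methylation difference in percentage points (x axis) of every listed 1-kb tile at each of the 40 forkhead genes (y axis) in the 3 comparisons, with circles for tiles within 2 kb of a TSS, triangles for the others, red for hypermethylated and blue for hypomethylated in SKOV3-E cells. The grey band holds the differences under 25 points, which the tables do not list. The left panel, the knockdown comparison, has 131 distinct tiles, 79 of them on the hypomethylated side, and the middle panel, the knockout comparison, 43.

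In the knockout comparison, the direction of member DMRs was near that of all DMRs. The share of members with a DMR was above that of all genes, but no interval was computed for it. The listed share of reachable member tiles was below that of all reachable tiles (5.74%, beside 6.63%). A DMR was listed at 22 of 40 members (55.0%), beside 46.8% of all genes. Among members of 10 kb or less it was 11 of 24 (45.8%), beside 30.3%. Within 2 kb of a TSS it was 10 of 40 members, beside 14.2% of all genes. Of the 43 member DMRs, 24 were hypermethylated (55.8%, 41.1 to 69.6%), beside 54.7% of all. Only 6 of the 43 had 50 or more CpGs (14.0%), beside 3.51% of all DMRs of this comparison. The median absolute difference was 45.3 points, beside 41.9 points.

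Of the 714 tiles at forkhead genes that RRBS could reach, 126 were listed in the knockdown comparison (17.6%, 15.0 to 20.6%), beside 12.4% of all reachable tiles. In the knockout comparison it was 41 (5.74%, 4.26 to 7.7%), beside 6.63%. Among the 97 reachable member tiles within 2 kb of a TSS and with 50 or more CpGs, 33 (34.0%, 25.4 to 43.9%) were listed in the knockdown comparison and 4 (4.12%, 1.62 to 10.1%) in the knockout comparison. The same shares over all genes were 15.2% and 2.46%. The prediction is not exact, as 126 of the 131 member DMRs of the knockdown comparison were at tiles called reachable.

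In the mix, which is made of the same libraries, 25 of 40 members had a DMR (62.5%), beside 38.2% of all genes. Of the 24 short members 17 had one, beside 27.9%, and 14 of 40 members had one within 2 kb of a TSS, beside 15.2%. Of 61 member DMRs 23 were hypermethylated (37.7%, 26.6 to 50.3%), beside 65.0% of all. The listed share of reachable member tiles was 8.4%, beside 5.14%. The median absolute difference was 34.2 points, beside 36.9 points.

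**Figure D2:**
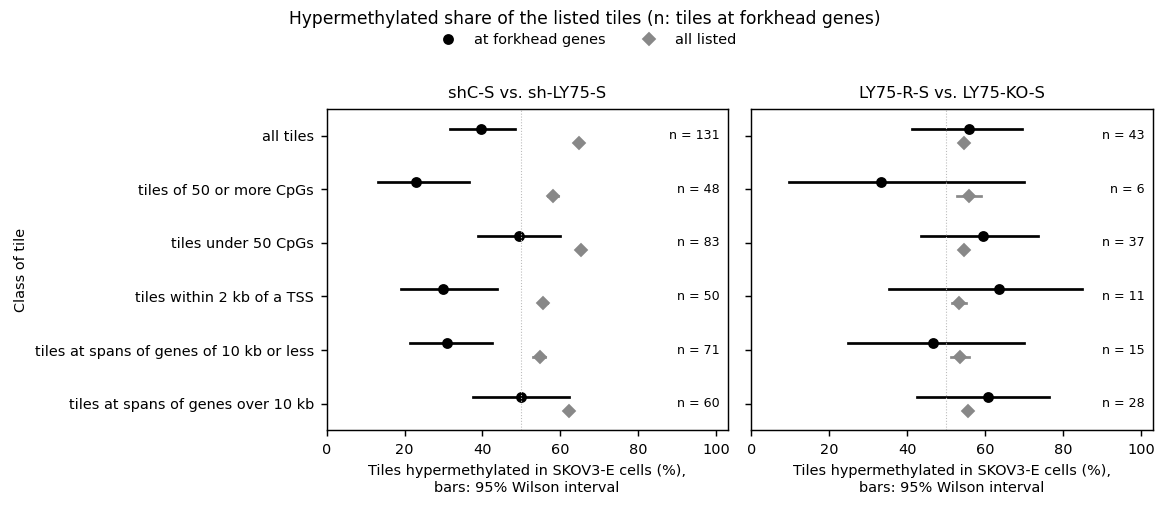
Share of listed tiles hypermethylated in SKOV3-E cells (x axis, percent) by class of tile (y axis) at forkhead genes (black circles) and over all listed tiles (grey diamonds), with 95% Wilson intervals as bars and the number of forkhead tiles at the right. In the knockdown comparison (shC-S vs. sh-LY75-S, left) the forkhead share was 22.9% for tiles of 50 or more CpGs, where all listed tiles gave 58.2%. In the knockout comparison (right) the forkhead intervals are wide, with 6 tiles in that class.

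The counts by direction varied among the subfamilies in the knockdown comparison. All 15 DMRs at the D genes and all 5 at the B genes were hypomethylated in SKOV3-E cells. At the C genes 8 of 9 were hypomethylated, at the P genes 23 of 28 and at the L genes 6 of 8. A hypomethylated tile between FOXC2 and FOXL1 is counted at both the C and the L genes. At the N genes 15 of 17 DMRs were hypermethylated. The K genes, with 7 of 10 hypermethylated, and the A genes, with 7 of 11, were near the 64.7% of all DMRs. At the F genes 9 of 13 were hypomethylated. Tiles of 1 gene are neighbours, so these counts are not counts of replicates.

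FOXD3, a factor of the neural crest and of pluripotent cells, had the largest listed share of reachable tiles of all members in the knockdown comparison (83.3%). Its span with 5 kb on each side (gene at chr1:63788238-63790799) held 12 reachable tiles, and 10 tiles were listed in the knockdown comparison, all hypomethylated. The first, 4238 bp upstream of the TSS, differed by -36.2 points, and the next 4 tiles towards the TSS by -50.0, -69.9, -54.6 and -29.8 points. The tile at the TSS differed by -41.6 points, and those 763 and 1763 bp into the gene, in coding sequence, by -63.3 and -96.2 points. Downstream, the tile that holds the printed FOXD3 fragment differed by -93.0 points, and the last, 6763 bp past the TSS, by -31.0 points. The differences were thus larger at the 3′ end of FOXD3 than at its TSS. None of these tiles was listed in the knockout comparison. In the mix, 4 were listed, at -30.5, 30.8, -53.7 and -45.0 points. FOXD3-AS1, an antisense transcript, overlaps 5 of the tiles, and methylation of the shared DNA cannot be assigned to either gene.

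The other D genes had DMRs in the knockdown comparison more than 2 kb from their start sites. FOXD1, a gene of the kidney stroma, had 1 tile at -44.4 points. FOXD2 had tiles at -86.2 and -42.7 points downstream of the gene, and the first was at -58.9 points in the mix. FOXD4 differed by -54.9 and -76.2 points downstream of the gene. FOXD4 had 1 tile in the knockout comparison, in its coding exon, hypermethylated by 35.9 points. FOXD4 has near-identical copies in the human genome (the FOXD4L genes), so reads may have been placed at the wrong copy.

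The clusters of forkhead genes on chromosomes 6 and 16 are ancient neighbourhoods in which C, F, L and Q genes stand side by side. On chromosome 6, FOXQ1 (chr6:1312333-1314993), a factor that promotes mesenchymal features in cancer cells, was hypomethylated at -67.5 points 333 bp upstream of its TSS and at -62.4 points 4333 bp upstream in the knockdown comparison. Downstream of FOXQ1 a tile was hypermethylated by 45.7 points. In the mix the upstream tiles gave -30.6 and -30.1 points, and FOXQ1 was not listed in the knockout comparison.

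FOXF2 (chr6:1389811-1395838), a factor of the mesenchyme of gut and palate, had 7 DMRs in the knockdown comparison. The tile that holds the printed FOXF2 fragment, 811 bp upstream of the TSS, was hypomethylated at -100 points in the knockdown comparison, at -58.7 points in the knockout comparison and at -65.0 points in the mix. It was the only member tile within 2 kb of a TSS that was hypomethylated in both single comparisons. Further upstream, tiles at 4811 and 3811 bp, which the neighbour FOXF2-DT also overlaps, were at -55.6 and -63.1 points. In the first exon, tiles 190 and 1190 bp past the TSS were hypermethylated by 29.1 and 57.1 points. In the intron the direction turned again, to -59.3 points 2190 bp past the TSS (-30.4 points in the knockout comparison) and -59.1 points 3190 bp past it. FOXF2 was thus hypermethylated at its coding start and hypomethylated on both sides of it.

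FOXC1 (chr6:1610150-1614132), a factor of eye and vessel development, differed in the opposite direction in the single comparisons. The tile with the printed FOXC1 fragment, 1150 bp upstream of the TSS, was at -80.7 points in the knockdown comparison and at 34.0 points in the knockout comparison. The next tile upstream was at -48.5 and 100 points in the same order, although no CpG of it lies within the predicted reach of the reads. The tile just before the TSS was listed in the knockdown comparison, at -74.7 points, and in the mix, at -36.3 points. A tile 4150 bp upstream was at -36.9 points, and a tile at the 3′ end of FOXC1 was hypermethylated by 36.2 points. FOXCUT, a neighbouring gene, overlaps the tiles 4150 and 2150 bp upstream.

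On chromosome 16, FOXF1 (chr16:86544133-86549028), needed for the vessels of the lung, had 6 DMRs in the knockdown comparison and none in the knockout comparison. The tile at its TSS was at -69.9 points and that 1133 bp upstream at -52.1 points. Inside the gene it was at 34.0 points 868 bp and -25.1 points 1868 bp past the TSS, and at 66.9 points near the 3′ end (34.7 points in the mix). A tile 8868 bp past the TSS was at -33.3 points. FENDRR, a noncoding neighbour, overlaps the tile 1133 bp upstream.

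FOXC2 (chr16:86600435-86603334), a factor of lymphatic vessels that is also used as a mesenchymal marker, was hypomethylated over its whole coding region. The tile at its TSS, with 93 CpGs, was at -95.8 points in the knockdown comparison. The following tiles were at -77.7 and -68.2 points, so the difference shrank from the TSS to the 3′ end. The TSS tile was at -75.4 points in the mix, the largest member difference there within 2 kb of a TSS, and no FOXC2 tile in the gene was listed in the knockout comparison. A tile between FOXC2 and FOXL1 was at -25.1 points in the knockdown comparison and at 30.1 points in the knockout comparison. FOXL1 (chr16:86609974-86617084), a factor of the gut mesenchyme, was at -51.2 points 155 bp before its canonical TSS and at -28.2 points at the TSS. FOXC2-AS1 overlaps FOXC2 and shares its tiles.

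**Figure D3:**
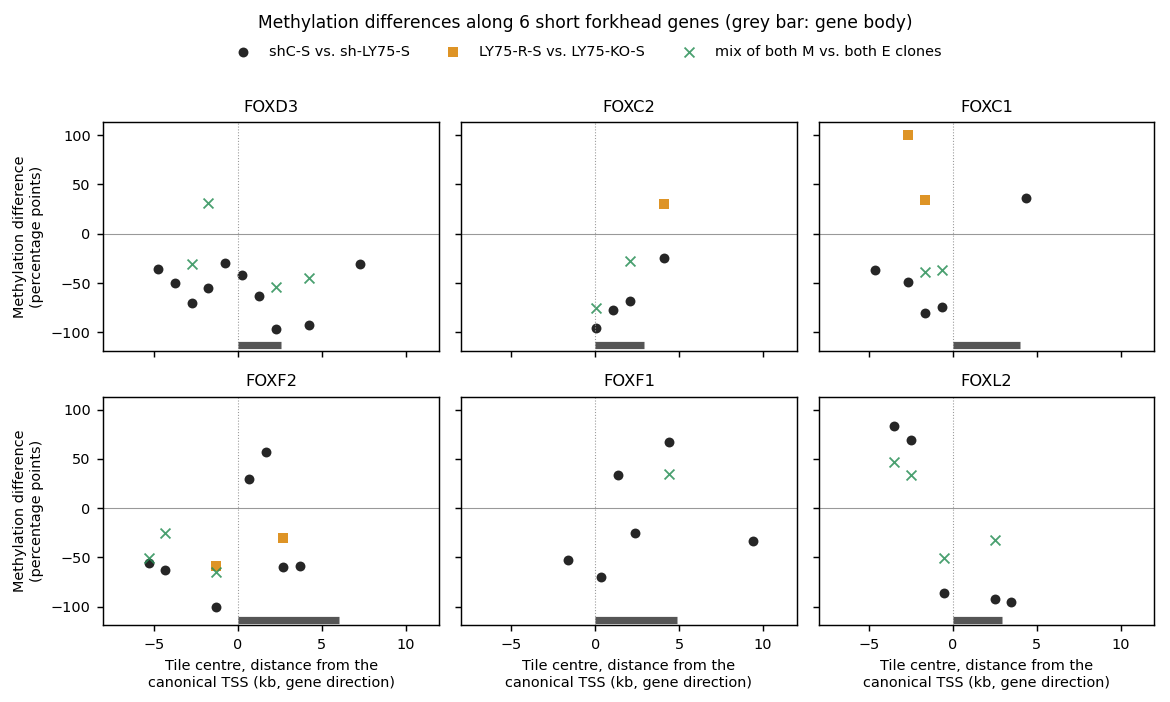
Methylation difference (y axis, percentage points) against the distance of the tile centre from the canonical TSS (x axis, kb, gene direction) at FOXD3, FOXC2, FOXC1, FOXF2, FOXF1 and FOXL2, with the gene body as a grey bar and black circles for the knockdown comparison, orange squares for the knockout comparison and green crosses for the mix. All 10 black circles at FOXD3 lie below 0, and FOXC1 has orange squares at 34.0 and 100 points above black circles at -80.7 and -48.5 points.

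FOXL2 (chr3:138663066-138665979), the gene of ovarian granulosa cells that is mutated in adult granulosa cell tumours, was hypomethylated in the gene and just upstream of its TSS, and hypermethylated further upstream. Downstream of the TSS, tiles were at -94.7 and -91.9 points, and the tile that ends 22 bp upstream was at -86.4 points in the knockdown comparison. The tiles 2022 and 3022 bp upstream were hypermethylated by 69.1 and 83.4 points. In the mix the same order held, with -32.4, -50.8, 34.1 and 46.4 points over the 4 tiles listed. FOXL2 was not listed in the knockout comparison, and FOXL2NB, a divergent neighbour, overlaps the upstream tiles.

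The B genes, which act in the developing brain and spinal cord, were hypomethylated at their starts. FOXB1 (chr15:60296433-60353929) was at -63.6 points at its TSS and -90.3 points 491 bp further in. FOXB2 was at -99.3 points at its TSS, where 3 CpGs can be reached, at -35.5 points 571 bp upstream and at -29.4 points downstream. FOXH1, the partner of SMAD proteins in Nodal signalling, had 1 tile, at -94.8 points, 769 bp upstream of its TSS. FOXE1, a thyroid factor, was at -31.9 points upstream and -41.0 points in its coding exon, with a tile at 66.4 points downstream. Another coding tile of FOXE1 was at -38.2 points in the knockout comparison. FOXE3, a lens factor, was at 28.1 points. B genes and FOXH1 were not listed in the knockout comparison.

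The FOXA genes encode pioneer factors, which open closed chromatin in liver, gut, breast and prostate epithelium. FOXA2 (chr20:22561636-22566093) was hypermethylated at an alternative TSS in both single comparisons and in the mix, which reuses their libraries. The tile there was at 29.0 points in the knockdown comparison, 45.3 points in the knockout comparison and 41.7 points in the mix. The tile at the canonical TSS was at 37.1 points and the next, in coding sequence, at 56.9 points in the knockdown comparison. Neither of these was listed in the knockout comparison. The tile 908 bp upstream of the nearest TSS was lower, at -36.8 points. A FOXA2 tile with 2 reachable CpGs downstream of the gene was at -100 points in the knockout comparison.

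FOXA1 (chr14:38058757-38065264) had its tile in both single comparisons downstream of the gene, where the printed FOXA1 fragment lies, at -53.4 points in the knockdown comparison, -36.2 points in the knockout comparison and -49.4 points in the mix. Its coding exon was at -30.7 points in the knockdown comparison, and an intronic tile at 47.6 points in the knockout comparison. Upstream, where TTC6 overlaps, FOXA1 was at 66.7 points in the knockdown comparison and, in the neighbouring tile, at -37.3 points in the knockout comparison. FOXA3 was at -26.9 points at its TSS and at 87.8, 46.7 and 64.0 points further along.

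The N genes were mostly hypermethylated, save FOXN2, which had no DMR. FOXN1 (chr17:26833261-26865918), needed for the thymic epithelium, had 5 DMRs in the knockdown comparison, at 67.3 points at the TSS and 60.0, 37.9, 34.1 and 51.4 points further along. Another gene, RSKR, overlaps all 5 of these tiles. FOXN1 was not listed in the knockout comparison. FOXN3, a transcriptional repressor linked to cell-cycle checkpoints, had 5 hypermethylated tiles in the knockdown comparison from 34.0 to 100 points and 1 at -25.1 points near its canonical TSS. Its 3 tiles in the knockout comparison were all hypermethylated, at 31.2, 32.7 and 69.6 points. No FOXN3 tile was listed in both single comparisons.

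FOXN4 (chr12:109715783-109747089), a factor of retinal and spinal neurons, had 5 hypermethylated tiles, from 31.5 to 98.8 points, and 1 at -63.0 points in the knockdown comparison. The tile with the printed FOXN4 fragment was at 41.9 points in the knockdown comparison, at 100 points in the knockout comparison and at 38.7 points in the mix. Another FOXN4 tile had opposite signs, 31.5 and -37.9 points, the latter with a q-value of 0.00667, close to the limit of the tables.

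The K genes, which regulate glycolysis and autophagy, carried their DMRs mostly in the gene body. FOXK1 (chr7:4721926-4811073) had 6 hypermethylated tiles in the knockdown comparison from 25.7 to 100 points, of which neighbouring intronic tiles stood at 92.4 and 100 points, and 1 intronic tile at -100 points. Its 1 tile in the knockout comparison was at -54.8 points. FOXK2 was at 50.0, -70.8 and -30.3 points in the knockdown comparison and at 50.0 points, in another intronic tile, in the knockout comparison.

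FOXP1 (chr3:71003844-71633129), which guides lymphocyte, lung and heart development, is the longest member (629286 bp) and had the most DMRs, 20 in the knockdown comparison, 8 in the knockout comparison and 11 in the mix. In the knockdown comparison 16 of 20 were hypomethylated, 3 of them at -100 points. The 16 lay mostly in introns, in tiles of 9 to 25 CpGs. The CpG-rich tile at an internal TSS, with 108 CpGs, went the other way, at 56.4 points. Of the 8 in the knockout comparison 5 were hypermethylated, among them a tile beside that TSS at 100 points. The tile with the printed FOXP1 fragment was at -88.0, -56.5 and -83.1 points in the knockdown comparison, the knockout comparison and the mix. A further pair was hypomethylated in all comparisons, at -98.1, -30.3 and -62.9 points and at -91.2, -26.3 and -62.9 points in the same order. Another pair had opposite signs, at -36.1 and 25.7 points and at -73.3 and 49.5 points.

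FOXP2 (chr7:113726382-114333827), known for its role in speech, had 7 DMRs in the knockdown comparison, all hypomethylated. Before its first TSS they were at -81.2, -85.6 and -57.1 points in neighbouring tiles. Much further into the span, the tile that starts 131 bp past the canonical TSS was at -100 points. In the knockout comparison a tile at another TSS, near the 5′ end of the span, was at -49.3 points. The others were at 60.0 and -63.8 points. No FOXP2 tile was listed in both single comparisons. FOXP4 differed in 1 intronic tile in both, by 100 points in the knockdown comparison and 47.4 points in the knockout comparison.

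**Figure D4:**
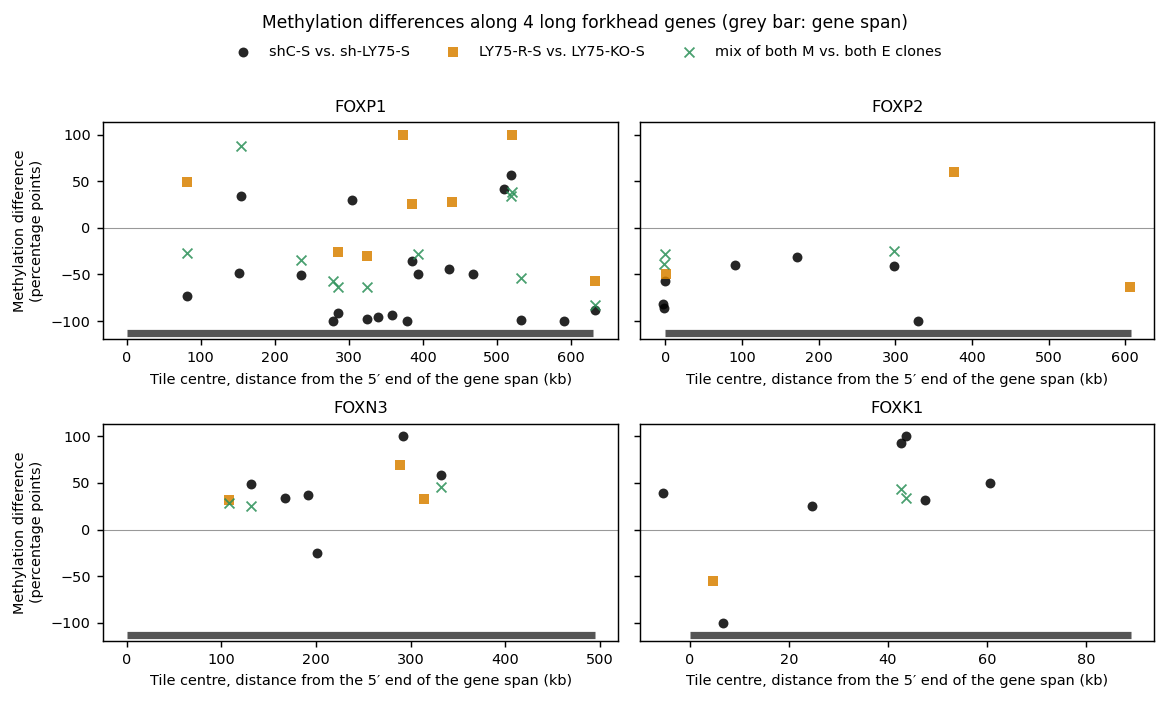
Methylation difference (y axis, percentage points) along FOXP1, FOXP2, FOXN3 and FOXK1, by distance of the tile centre from the 5′ end of the gene span (x axis, kb, scale differs by panel), with black circles for the knockdown comparison, orange squares for the knockout comparison and green crosses for the mix. FOXP1 has 16 of 20 black circles below 0 and FOXP2 all 7, while FOXN3 has 5 of 6 and FOXK1 6 of 7 above 0.

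The FOXO genes, effectors of insulin and stress signals, had 3 DMRs in the knockdown comparison, 5 in the knockout comparison and none in the mix. FOXO3 was at 72.2 points in its coding exon 881 bp past a TSS in the knockdown comparison. A processed copy of FOXO3 elsewhere in the genome makes the placing of reads there uncertain. FOXO1 had 1 intronic tile with 2 reachable CpGs, at -81.8 points in the knockout comparison. FOXO6 had a tile near a TSS in both single comparisons, at 33.3 points in the knockdown comparison and 35.0 points in the knockout comparison. Its other tiles were at 29.9 points in the former and at -34.3, 29.5 and 34.9 points in the latter.

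The remaining members had 1 or 2 listed tiles each. FOXI2 was at 39.2 points at its TSS and 52.1 points 1552 bp past it in the knockdown comparison. FOXI3, a factor of ectodermal organs, was at -63.9 points upstream in the knockout comparison. FOXJ1, the regulator of motile cilia, was at 60.9 and 26.2 points in the knockdown comparison, and the latter tile at -32.8 points in the knockout comparison. FOXJ2 was at -100 points upstream and FOXJ3 at -41.1 and 46.8 points, both in the knockout comparison alone. FOXR1 was at 33.3 points at its TSS in the knockdown comparison, and FOXS1 at 50.0 points downstream in the knockout comparison.

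The single comparisons shared 17 member DMRs, which is 17 of 131 and 17 of 43. Over the genome they shared 8345 DMRs, of 51243 in the knockdown comparison and 28282 in the knockout comparison. In 10 of the 17 the direction was the same (58.8%, 36.0 to 78.4%), beside 52.6% of the 8345 DMRs that both list over the genome. The 10 lay at FOXF2 (2 tiles), FOXP1 (3 tiles), FOXA1, FOXA2, FOXN4, FOXO6 and FOXP4. The 7 of opposite direction lay at FOXC1 and FOXP1 (2 tiles each), at FOXJ1, at FOXN4 and between FOXC2 and FOXL1. If the knockout comparison is read in the other order of subtraction, these counts change places. By gene, 17 members had a DMR in both single comparisons, 15 in the knockdown comparison alone and 5 in the knockout comparison alone. The same split over all genes was not computed. The knockdown comparison lists more DMRs in total, so the split by itself says nothing particular to forkhead genes.

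**Figure D5:**
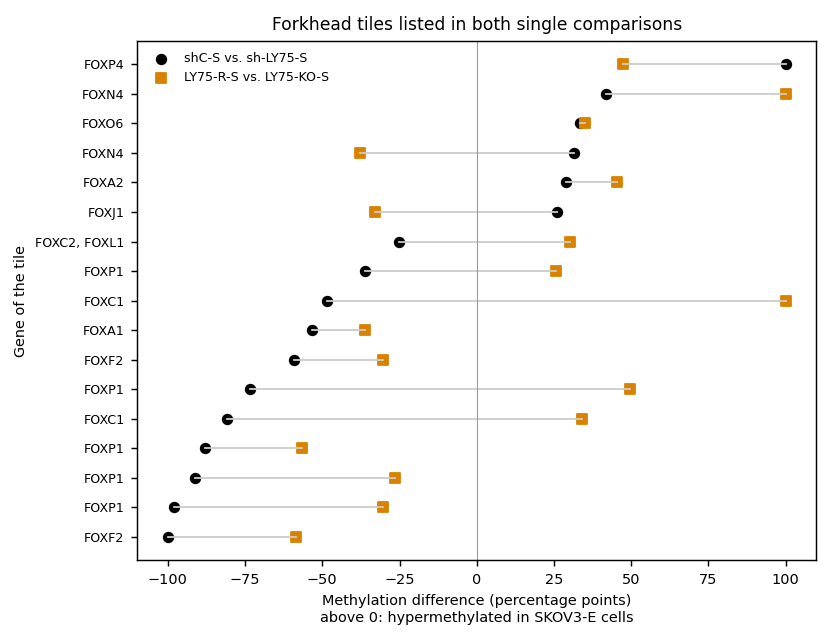
Methylation difference (x axis, percentage points) of the 17 forkhead tiles listed in both single comparisons, 1 row per tile named by gene (y axis), with black circles for the knockdown comparison and orange squares for the knockout comparison joined by a grey line. Lines that do not cross 0 mark the 10 tiles of the same direction, from FOXF2 at -100 and -58.7 points to FOXP4 at 100 and 47.4 points.

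Genes that work with forkhead factors were described by DMRs within 2 kb of a TSS. All 7 partners and co-regulated genes of FOXA reported here had one in the knockdown comparison, 3 in the knockout comparison and 5 in the mix, beside the 30.1%, 14.2% and 15.2% of all genes already given. By their largest difference in the knockdown comparison, 4 were hypermethylated, among them HNF4A at 100 points and CDH1, the E-cadherin gene, at 73.6 points. The other 3 were hypomethylated, with TLE1, a corepressor, at -100 points, GATA3 at -50.0 points and TLE3 at -40.6 points. No expression values belong to these data, so silencing cannot be read from them. In earlier work recalled by the study, LY75 depletion induced E-cadherin expression in SKOV3 cells. Over the 7 genes the median of the largest absolute difference was 50.0 points, beside 54.2 points over all genes with such a DMR. Of 23 regulators and targets of FOXO, 6 had a DMR in the knockdown comparison (26.1%), 3 in the knockout comparison and 3 in the mix, with a median of 34.2 points in the knockdown comparison. Among the genes of FOXO signalling were SGK1 at -63.7 points and KLF2 at -63.9 points. Of 10 regulators and targets of FOXM1 only CDC25B had one, at -51.6 points in the knockdown comparison. Of 12 noncoding or divergent neighbours of forkhead genes, 7 had one in the knockdown comparison, with a median of 76.9 points, in tiles that the forkhead genes largely share.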

How the data were processed

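The authors' deposited tables hold, for tiles of 1000 bp on hg19, a methylation difference in percentage points and its p-value and q-value. The labels name Trim Galore 0.4.1 and Bismark 0.16.1 in the processing notes (Trimmomatic in the protocol) and methylKit for the comparisons. The minimum coverage is not given in the sources used here. All columns hold comparisons of libraries, none a single sample. Tiles were joined to GENCODE release 44 on GRCh37, and CpGs and MspI fragments of 40 to 220 bp were counted in the reference. The counting step was tested on a built sequence with CpGs at known places. "Reachable" tiles are those with a CpG within 50 bp of the end of such a fragment, whether or not they were covered. Shares have 95% Wilson intervals. With 1 library per clone no test between conditions was possible, and the values are descriptions.

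A positive sign was read as hypermethylated in SKOV3-E cells. In the knockdown comparison this was settled with 10 genes whose direction is stated in the study. In a least-squares fit to the mix over the 4250 tiles in all tables, the knockdown comparison had the coefficient 0.534 and the knockout comparison 0.435, so both carried the sign of the mix. The deposited name of the knockout comparison puts LY75-KO-S first, and read in that order its signs would be reversed. The forkhead genes and gene lists were chosen with earlier results of these data known, and 1 gene of the FOXA list is not reported here. Values are given for members with tiles within 2 kb of a TSS in both single comparisons, the 10 largest such tiles per comparison, the 5 members with most tiles and the gene clusters. The remaining members with a tile are named with their values outside that rule. Alternatives varied the flank, region, thresholds, gene length, fragment size and order of subtraction. The versions were pandas 2.3.3 and numpy 2.4.6 on Python 3.11.15, with matplotlib 3.10.9 for plots and scipy 1.17.1 for the interval of a median.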

Additional observations from a re-analysis of the deposited data

Results flagged for a closer look

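In 7 tiles at forkhead genes the single comparisons had opposite signs, which was not tested. Upstream of FOXC1, the tile starting at chr6:1607001 was at -48.5 points in the knockdown comparison and 100.0 points in the knockout comparison, and the tile starting at chr6:1608001 was at -80.7 and 34.0 points. The tile of FOXC2 and FOXL1 starting at chr16:86604001 was at -25.1 and 30.1 points, that of FOXJ1 at chr17:74133001 at 26.2 and -32.8 points, and that of FOXN4 at chr12:109719001 at 31.5 and -37.9 points. In introns of FOXP1, the tile at chr3:71248001 was at -36.1 and 25.7 points and that at chr3:71551001 at -73.3 and 49.5 points. Read in the other order of subtraction for the knockout comparison, these 7 tiles would share a direction and the other 10 would not.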

How the results depend on the processing

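No paired analysis was possible because no clone has a replicate. Under all alternatives run, the hypermethylated share of member DMRs in the knockdown comparison lay between 30.0% and 49.4%. Of the alternative values, 102 stayed within the interval of the reported value (within 1.5 times for counts of genes) and 19 moved. The cause was not tested beyond what each setting leaves out. In the knockdown comparison, the hypermethylated share of member DMRs was 49.4% with no flank and 30.0% within 2 kb of a TSS. The listed share of reachable tiles was 29.2% within 2 kb of a TSS and 24.2% without genes over 100 kb. At 50 points or more it was 10.6%, with a median of 69.9 points. In every comparison, this threshold by itself can only raise the median and lower the listed share. In the knockout comparison, the members with a DMR numbered 10 within 2 kb of a TSS and 13 at 50 points or more, where the median was 66.7 points and the listed share 1.96%. In the mix, members with a DMR numbered 14 and 6 in the same order, and the listed share was 15.2%, 1.68% and, without genes over 100 kb, 11.4%. At 50 points or more the mix had a median of 60.9 points and a hypermethylated share of 8.33% (1 of 12). The share of the same direction in both single comparisons was 100% (2 of 2) at 50 points or more and 87.5% (7 of 8) at q-values of 1e-10 or less. Neither for these shares nor for the mix share of 8.33% was the value over all DMRs at the same threshold computed. Whether they are particular to forkhead genes is thus unknown. Leaving out FOXP1 or FOXD3, chosen after seeing the data, gave hypermethylated shares of 43.2% and 43.0% in the knockdown comparison.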

Other observations

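A few member tiles had mix values that the single comparisons do not show. The FOXD3 tile starting at chr1:63786001 was at -54.6 points in the knockdown comparison and at 30.8 points in the mix, while it was not listed in the knockout comparison. It was the 1 tile of opposite sign among 55 member tiles listed in both (1.82%), beside 1.54% of 17051 over the genome. In 3 of the 55 the mix difference was larger in size than the knockdown difference, beside 1969 of 17051. The FOXP1 tile starting at chr3:71478001 was at 34.4 points in the knockdown comparison and at 87.7 points in the mix. The FOXA2 tile at the canonical TSS was at 37.1 and 45.1 points in the same order, and was not listed in the knockout comparison. The remaining one, at an alternative TSS of FOXA2, lay between its values in the single comparisons. In the mix alone, FOXA2 had a coding tile at -26.8 points, FOXL1 one at -29.7 points and FOXQ1 one at -25.8 points.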
